A study of Mus musculus with 6 samples.

Results

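The expressed long intergenic noncoding RNAs (lincRNAs) of mouse primary renal tubular epithelial cells (TECs) were compared between cells with siSox9, a small interfering RNA against the transcription factor gene Sox9, and cells with the control siRNA siNC. The members were selected on their level. They are the 151 genes of biotype lincRNA with a mean of at least 1 FPKM (fragments per kilobase of exon, scaled to the reads of the library) over the 6 libraries, out of 2302 lincRNA rows in a table of 30315 genes. Of the 157 lincRNAs at this level, 6 well-known ones were set aside (Neat1, Malat1, Snhg6, Snhg12, Snhg18 and Snhg20), 2145 lay below it, and 347 of the lincRNAs were listed at 0 in every library. The cells came from kidneys of C57BL/6 mice. All 6 libraries, 3 per group, were made after hypoxia/reoxygenation (H/R) injury, with the siRNA given 12 h before 6 h at 1% oxygen without glucose and 18 h of reoxygenation. Both groups therefore carried an siRNA and the injury, and no uninjured cells were compared here. The labels do not say whether replicates were separate isolations of cells, so p-values measure the spread between these libraries, which may be technical.

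LincRNAs are transcripts that lie between protein-coding genes, are often spliced and hold no long reading frame. Some act on chromatin or on a neighbouring gene at their own locus, some bind proteins or microRNAs in the cytoplasm, and some are precursors from which microRNAs are cut. Most have no known function, and they are usually less abundant and more restricted to particular tissues than messenger RNAs. The names of the members show this state of knowledge, since 77 carry a predicted-gene (Gm) number, 40 a RIKEN clone (Rik) name and 16 the name of a genomic clone.

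The knockdown was checked on Sox9 itself, which had 8.93, 8.61 and 9.07 FPKM in siSox9 replicates 1, 2 and 3, and 25.7, 26.5 and 25.6 FPKM in siNC replicates 1, 2 and 3, so 34.2% of the control level was left. Markers of tubule epithelium were at high levels in both groups, with summed levels of 3803 to 3959 FPKM with siSox9 and 3641 to 3840 FPKM with siNC for 7 of 7 genes, of which Cdh16, a kidney cadherin, was higher. Of the 4 proximal tubule markers only Lrp2 reached 1 FPKM, and Slc34a1, the phosphate transporter of the brush border, was at or near 0. Summed fibroblast markers were 6.45 to 7.95 FPKM with siSox9 and 7.99 to 9.09 FPKM with siNC, with 5 of 6 genes below 1 FPKM and Dcn near 0. The groups of this sum did not overlap. Col3a1 (0.200 against 0.280 FPKM) and Pdgfrb (0.591 against 0.763 FPKM), not tested, were lower in every siSox9 library. Col1a1, Col1a2, Pdgfra and Dcn overlapped between groups, and Col1a1, the fibroblast marker tested, was not called (limma, adjusted p = 0.118). The 4 macrophage markers summed to 22.8 to 25.7 and 23.1 to 24.2 FPKM, and the 4 endothelial markers to 2.76 to 2.99 and 3.15 to 4.01 FPKM. None of the 3 macrophage markers and the 1 endothelial marker tested was called, and the rest lay below 1 FPKM. Of the endothelial markers not tested, Emcn (0.664 against 1.08 FPKM) and Pecam1 (0.570 against 0.677 FPKM) were lower in every siSox9 library. Kdr (0.509 against 0.418 FPKM) overlapped between groups. All 10 genes of dividing cells were lower with siSox9, with sums of 97.6 to 106 FPKM against 147 to 150 FPKM. Whether the state of division plays a part in the lincRNA differences given here was not tested. In bulk RNA, fewer cells with a transcript and less of it per cell cannot be told apart. The depth was close between libraries, at 23893197 to 25725743 reads as recovered from the FPKM values.

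The 151 lincRNAs were scarce transcripts with a few abundant ones. Their median level was 1.95 FPKM, against 8.24 FPKM for the protein-coding genes of at least 1 FPKM, and 77 of them lay under 2 FPKM. Only 14 lincRNAs reached 10 FPKM and 7 reached 20 FPKM, and the 10 highest held 42.1% of the summed level of all 151. Together they made up 0.224% to 0.231% of all FPKM with siSox9 and 0.194% to 0.216% with siNC. Their exons were short, with a median of 1550 bases and 3 exon blocks, against 4484 bases and 10 exon blocks for protein-coding genes at this level. Reads were few as a result. Whole reads could be recovered for 134 of the 151, with a median of 65 reads per lincRNA and library and 50 lincRNAs under a mean of 50 reads. The median coefficient of variation within a group was 16.4% for lincRNAs under 2 FPKM, 10.2% from 2 to under 5 FPKM and 5.59% from 5 FPKM.

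**Figure D1:**
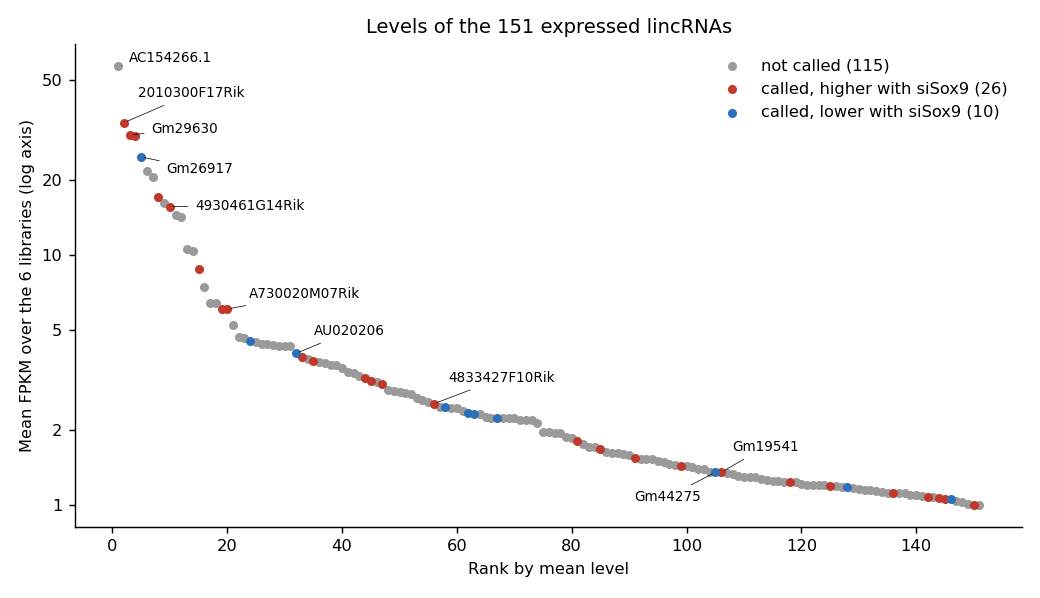
Mean FPKM over the 6 libraries (log axis) of each of the 151 lincRNAs against its rank by that level, with lincRNAs called higher with siSox9 in red (26), called lower in blue (10) and not called in grey (115). Levels run from 56.9 FPKM for AC154266.1 down to 1 FPKM, and called lincRNAs occur along the whole range.

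The most abundant lincRNA, AC154266.1, had 53.4, 56.9 and 60.9 FPKM with siSox9 and 52.4, 60.4 and 57.4 FPKM with siNC. Its groups overlapped, and it did not pass the test. The second, 2010300F17Rik, had 36.1, 35.6 and 37.1 FPKM with siSox9 and 32.1, 32.3 and 29.2 FPKM with siNC, so every siSox9 library was above every siNC library. Next came Gm29630 at a mean of 30.1 FPKM and 2900097C17Rik at 29.9 FPKM, which is less apart than the spread of Gm29630 between replicates. 2900097C17Rik is the mouse Norad gene, whose unspliced cytoplasmic transcript binds Pumilio proteins. It had 31.2, 32.4 and 30.3 FPKM with siSox9 and 28.9, 28.2 and 28.2 FPKM with siNC. This narrow gap of 0.13 ± 0.03 (log2 fold change ± SE on the log2(FPKM + 1) scale, used for all fold changes below) rested on 3351 to 4050 reads per library. These were followed by Gm26917 (24.6 FPKM), Epb41l4aos, Gm42047, Gm53, 1700020I14Rik and 4930461G14Rik (15.6 FPKM). 1700020I14Rik is Cyrano, listed as Oip5os1 in RefSeq, a lincRNA known for directing the decay of the microRNA miR-7. Cyrano had 15.8, 16.9 and 15.99 FPKM with siSox9 and 15.9, 15.6 and 16.4 FPKM with siNC, with overlapping groups. Its fold change was 0.02 ± 0.04, while Nusap1, the gene of a spindle protein and its nearest coding gene at 24001 bases, changed by -0.61.

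Between siSox9 and siNC, 36 of the 151 lincRNAs were called, that is, had a Benjamini-Hochberg adjusted p under 0.05 by limma on log2(FPKM + 1) over all 12009 genes tested. This is 23.8% of the lincRNAs, where 30.4% of all genes tested were called. Of the 36, 26 were higher with siSox9, or 17.2% of the lincRNAs against 12.8% of all genes tested. The other 10 were lower, or 6.62% against 17.6% of all genes tested. Their number fell to 6, 4, 5 and 5 without siNC replicate 1, siNC replicate 3, siSox9 replicate 2 and siSox9 replicate 3, to 6 on TPM and to 4 with no minimum level. All calls fell to 23 without siSox9 replicate 2 and to 22 with no minimum level. Higher calls were thus 72.2% of the lincRNA calls and 42% of all calls, or 76.9% and 52.6% after centring each library on its median. The median fold change of the lincRNAs was 0.075, and that of all genes tested was -0.014. In 53 lincRNAs, or 35.1%, the 3 siSox9 libraries and the 3 siNC libraries did not overlap, against 46.3% of all genes tested, and these 53 include every called lincRNA. An exact two-sided permutation test of a single lincRNA cannot give a p under 0.1 with 3 libraries against 3.

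The summed level of the 151 lincRNAs was 663 ± 4.14 FPKM with siSox9 and 602 ± 4.81 FPKM with siNC (mean ± SD, n = 3), and every siSox9 library, at 658 to 666 FPKM, was above every siNC library, at 597 to 606 FPKM. The difference was 60.9 FPKM. Gm29630 accounted for 16.4 FPKM of it, 4930461G14Rik for 7.53 FPKM and 2010300F17Rik for 5.09 FPKM, while Gm26917 changed by -10.6 FPKM. Without Gm29630 and 4930461G14Rik the difference was 37.0 FPKM.

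Calls were also set beside those of other genes of like level, since lincRNAs are low. From 1 to under 2 FPKM, 12 of 77 lincRNAs were called higher (15.6%) and 3 lower (3.9%), while 4.2% of the 1620 other genes tested were called higher and 15.4% lower. From 2 to under 5 FPKM, 6 of 53 lincRNAs were higher (11.3%) and 6 lower, against 6.51% and 19.9% of the 2764 other genes. From 5 to under 20 FPKM, 5 of 14 were higher and 0 lower, against 14.1% and 18.5% of the 4860 other genes. From 20 FPKM, 3 of 7 were higher and 1 lower, against 21.8% and 15.6% of the 2614 other genes, so that the share of lower calls (14.3%) was near theirs. In each of the 4 ranges the share of higher calls was larger among lincRNAs than among the other genes, and below 20 FPKM that of lower calls was smaller. Membership itself bears on these shares near the minimum. With 14 lincRNAs the mean reached 1 FPKM with siSox9 alone, and 10 of them were called higher. With 6 it did so with siNC alone, and 3 of them were called lower. Among the 131 that reached it in both groups, 16 were higher and 7 lower, or 12.2% and 5.34%. The 12.8% of higher calls among all genes tested covers all levels and includes genes that reached the minimum in either group alone. The shares are therefore not of like kind, and the 131 were not set beside other genes of like level.

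**Figure D2:**
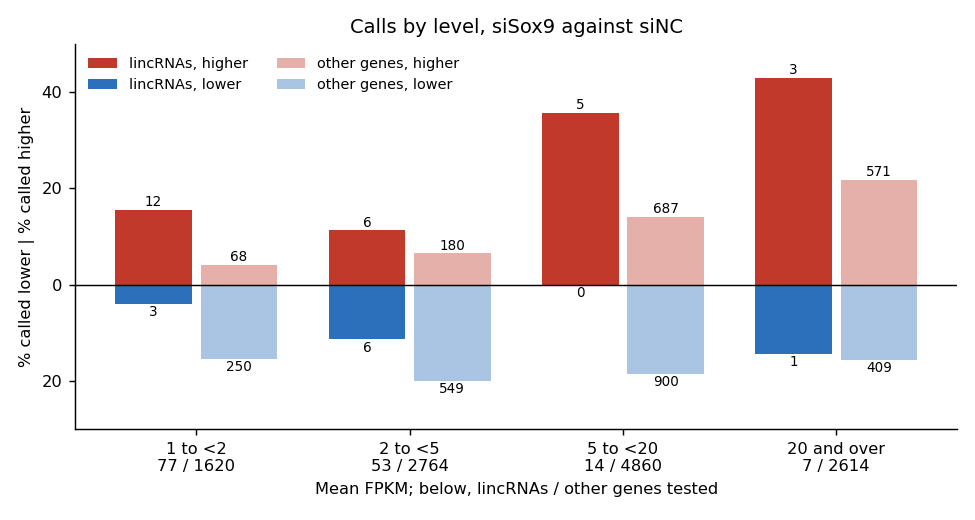
Share of genes called higher (upward, red) and lower (downward, blue) with siSox9 in 4 ranges of mean FPKM, for the 151 lincRNAs (full colour) and for the other genes tested (pale), with the number of called genes at each bar and the numbers tested under each range. In each range the red bar of the lincRNAs is taller than that of the other genes, and below 20 FPKM their blue bar is shorter.

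The largest rise was that of 4833427F10Rik (ENSMUSG00000092171), a spliced lincRNA of 1475 exon bases on the + strand of chromosome 17 at 35772450-35780687 (GRCm38, as for all positions here). It had 3.61, 4.73 and 4.45 FPKM in siSox9 replicates 1, 2 and 3, and 0.846, 0.842 and 0.764 FPKM in siNC replicates 1, 2 and 3. The lowest siSox9 library was thus far above the highest siNC library. The reads behind these values were 137, 177 and 157 with siSox9 and 31, 30 and 28 with siNC. The ratio of the means was 5.22, and the fold change was 1.53 ± 0.09 (limma, adjusted p = 8.9e-05). The nearest coding start was that of Ier3, an immediate early gene for a regulator of cell survival, 49234 bases away on the same strand. Ier3 was also higher, by 0.25 ± 0.04, at 337 FPKM against 282 FPKM.

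The second was Gm19541 (ENSMUSG00000098370), with exons of 2868 bases on the + strand of chromosome 9 at 77046682-77051953. It had 2.30, 2.25 and 1.94 FPKM with siSox9 and 0.520, 0.491 and 0.589 FPKM with siNC. The ratio of its means was 4.06 and its fold change 1.04 ± 0.07 (limma, adjusted p = 1.7e-04). Its start lies 888 bases from that of Tinag, and both genes point away from each other, which is called a divergent pair. Tinag encodes tubulointerstitial nephritis antigen, a protein of the basement membrane of kidney tubules. Tinag had 16.3, 16.8 and 16.4 FPKM with siSox9 and 8.73, 7.92 and 7.61 FPKM with siNC, a fold change of 0.95 ± 0.05 and a ratio of means of 2.04. The lincRNA and the coding gene of this locus were thus both higher in every siSox9 library. These 2 lincRNAs were the only members called with a fold change over 1, and both had a mean under 1 FPKM with siNC.

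Gm29630 was the abundant lincRNA with the largest rise. It had 42.9, 36.7 and 35.3 FPKM with siSox9 and 26.03, 21.3 and 18.5 FPKM with siNC, that is, 38.3 ± 4.0 against 22.0 ± 3.8 FPKM (SD, n = 3). Its fold change was 0.78 ± 0.12 (limma, adjusted p = 0.0035), with 165 to 396 reads per library over only 359 exon bases. It lies on the - strand of chromosome 1 at 132274716-132280411, 18215 bases from the start of Klhdc8a, which was slightly lower at -0.12 ± 0.04. 4930461G14Rik, on chromosome 9 at 58455122-58469635, had 19.3, 19.3 and 19.4 FPKM with siSox9 and 12.8, 10.6 and 12.1 FPKM with siNC. Its replicates with siSox9 were nearly equal, and its fold change was 0.67 ± 0.06. A730020M07Rik, on chromosome 3, had 7.19, 7.59 and 8.07 FPKM with siSox9 and 4.53, 4.56 and 4.48 FPKM with siNC, a fold change of 0.64 ± 0.05. BC002059 rose by 0.59 ± 0.06, from 2.23 to 3.86 FPKM in the mean.

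Gm45391, on chromosome 8 at 103130248-103144946, had 7.49, 7.45 and 7.41 FPKM with siSox9 and 4.82, 4.46 and 4.82 FPKM with siNC. Its fold change was 0.57 ± 0.04 (limma, adjusted p = 1.7e-04). The nearest coding gene, Cdh11, which encodes a cadherin of mesenchymal cells, starts 359304 bases away and was lower, at -0.47 ± 0.05. 1600027J07Rik, another member with Cdh11 as its nearest coding gene, had 10.9, 11.3 and 11.5 FPKM with siSox9 and 8.65, 10.6 and 10.4 FPKM with siNC and was not called. Gm12603, listed in RefSeq as Wincr1 and known as a Wnt-responsive lincRNA of dermal fibroblasts, had 4.14, 4.40 and 5.44 FPKM with siSox9 and 2.43, 2.72 and 3.44 FPKM with siNC. Its fold change was 0.55 ± 0.12 (limma, adjusted p = 0.012). Gm4262 had 2.02, 2.08 and 1.88 FPKM with siSox9 and 1.32, 1.13 and 0.810 FPKM with siNC, a fold change of 0.53 ± 0.10.

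The other 3 of the 12 largest rises were lincRNAs whose mean with siNC lay under 1 FPKM. AC134528.2 rose by 0.50 ± 0.10 and 2810414N06Rik by 0.48 ± 0.07, and both had non-overlapping groups. Gm567, on chromosome 3, had 1.91, 1.60 and 2.14 FPKM with siSox9 and 1.46, 0.883 and 0.601 FPKM with siNC, from 7 to 24 reads per library. Its call was lost without any 1 library other than siNC replicate 1 (limma, adjusted p of 0.055 to 0.104). The calls of Gm12603 and Gm567 were also lost when no minimum level was set (limma, adjusted p = 0.0506 and 0.117).

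**Figure D3:**
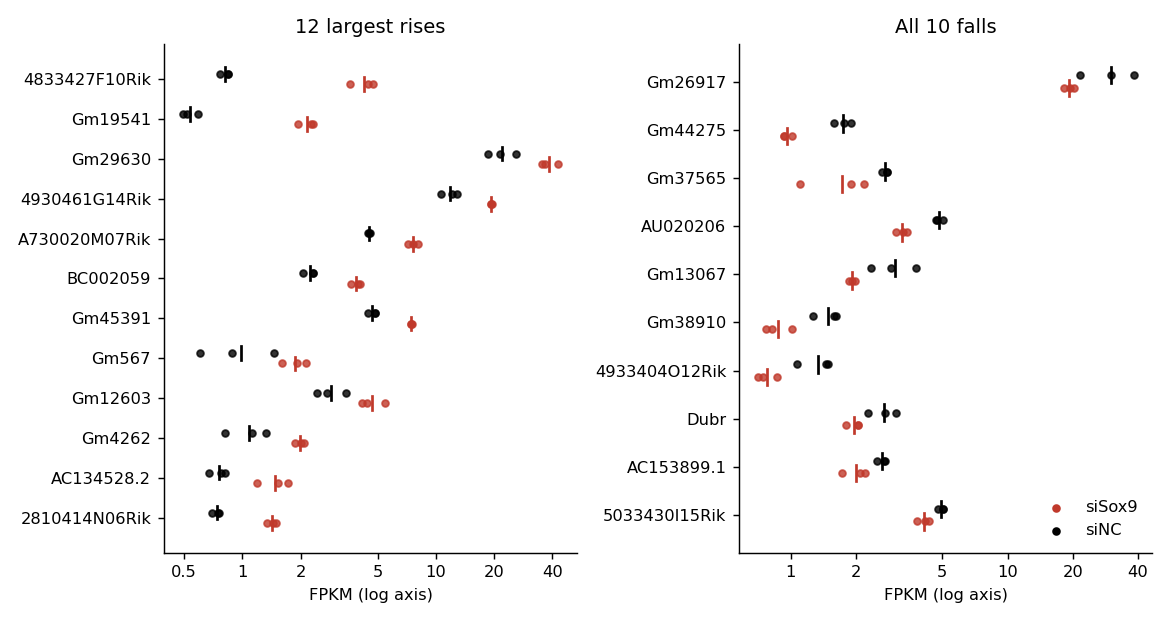
FPKM (log axis) of the 12 lincRNAs with the largest rises (left) and of all 10 lincRNAs that were lower with siSox9 (right), each point being 1 library, with siSox9 in red and siNC in black, and a vertical bar at each group's mean (n = 3). No red point crosses a black point of the same lincRNA, and the widest gaps are those of 4833427F10Rik and Gm19541.

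The other 14 lincRNAs called higher rose by 0.13 to 0.44. 2410004I01Rik had 4.62, 4.68 and 4.65 FPKM with siSox9 and 2.95, 3.35 and 3.19 FPKM with siNC, the largest of these at 0.44 ± 0.05. AC125351.1, a single-exon lincRNA of 2223 bases, had 9.95, 10.3 and 10.03 FPKM with siSox9 and 7.54, 7.58 and 7.51 FPKM with siNC, from 407 to 579 reads per library. It begins 958 bases past the end of Map3k9, a kinase gene on the same strand that rose as well, by 0.31 ± 0.05. In all, 16 lincRNAs lay within 5000 bases past the end of a coding gene on their own strand, and 4 of these were called, where 30.4% of all genes tested were. Of the 4, AC125351.1 was higher, while Gm38910, 4933404O12Rik and AC153899.1 were lower. In 2 of these pairs the coding gene was called in the same direction. They were AC125351.1 with Map3k9 and 4933404O12Rik with Ift22, which changed by -0.15. Whether reads past the ends of the coding transcripts add to the values of the 16 lincRNAs was not tested. Gm53 lies in the Hoxb cluster, where its nearest coding start was that of Hoxb9. Gm53 had 19.7, 17.6 and 17.5 FPKM with siSox9 and 16.9, 15.7 and 15.1 FPKM with siNC, a fold change of 0.19 ± 0.06, while Hoxb9 changed by -0.13 ± 0.03.

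The loss of 1 library ended the call of 16 of the 36 lincRNAs, 9 higher and 7 lower, while no fold change turned its sign. Beside Gm567, the higher ones were the following. 2900097C17Rik lost it without siNC replicate 2 or 3 or siSox9 replicate 1 or 2 (limma, adjusted p of 0.0681 to 0.0908), and Gm53 without any library but siNC replicate 1 (0.0603 to 0.136). Gm6712 lost it without siNC replicate 1 or 2 or siSox9 replicate 1 or 3 (0.0643 to 0.0853), Gm32391 without any 1 siSox9 library (0.0539 to 0.0929), and 4632404H12Rik without siSox9 replicate 2 (0.0530). Pvt1 (0.0503 to 0.0712) and AC108401.3 (0.0650 to 0.135) lost it without any library but siNC replicate 3. 1110006O24Rik lost it without siNC replicate 1 or 3 or siSox9 replicate 1 or 2 (0.0541 to 0.0728). With no minimum level, 14 lincRNAs lost their call, which were Gm12603 and the same 16 apart from 2900097C17Rik, 4632404H12Rik and 5033430I15Rik.

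Of the lincRNAs that were lower with siSox9, AU020206 (ENSMUSG00000097415) had the smallest adjusted p. It lies on the - strand of chromosome 7 at 75769038-75782099 and had 3.05, 3.28 and 3.43 FPKM with siSox9 and 4.67, 5.06 and 4.74 FPKM with siNC, from 250 to 390 reads per library. Its fold change was -0.45 ± 0.05 (limma, adjusted p = 9.7e-04), and Klhl25, its nearest coding gene, was at 0.02 ± 0.06. Gm44275, on chromosome 6, had 0.926, 1.02 and 0.930 FPKM with siSox9 and 1.76, 1.89 and 1.58 FPKM with siNC, a fold change of -0.49 ± 0.07. Gm38910, also on chromosome 6, had 1.02, 0.772 and 0.821 FPKM with siSox9 and 1.58, 1.62 and 1.27 FPKM with siNC. These 3 lincRNAs were the lower calls that held in each fit with 1 library left out, but Gm44275 and Gm38910 reached the minimum level through siNC alone, with siSox9 means of 0.957 and 0.870 FPKM.

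Gm26917 was the most abundant lincRNA that was lower and had the largest fold change of them on the log2(FPKM + 1) scale. With a pseudocount of 0.1 it was at -0.59, behind 5 other falls led by Gm44275 at -0.80. It had 18.3, 19.5 and 20.2 FPKM with siSox9 and 21.6, 29.9 and 38.2 FPKM with siNC, so its siNC libraries differed more among themselves than siNC replicate 1 differed from siSox9. Its fold change of -0.57 ± 0.18 (limma, adjusted p = 0.046) was no longer called without any 1 library other than siNC replicate 1 (0.0814 to 0.122), nor after median centring (0.0547). Gm26917 is a single exon with 69.1% G and C on the + strand of chromosome 17 at 39843013-39846341. A row of biotype rRNA, CT010467.1, lies on the - strand, with its nearer end 11 bases past the end of Gm26917. CT010467.1 had 87.6, 121 and 94.6 FPKM with siSox9 and 116, 129 and 148 FPKM with siNC. Both rows had their highest value in siNC replicate 3, and the part of ribosomal RNA left in the libraries in the values of Gm26917 was not tested.

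The remaining 6 falls were smaller or rested on few reads. Dubr, a lincRNA studied in the differentiation of muscle precursors, had 2.05, 2.04 and 1.81 FPKM with siSox9 and 3.07, 2.27 and 2.71 FPKM with siNC, a fold change of -0.31 ± 0.09. It lost its call without any 1 library other than siNC replicate 2 (limma, adjusted p of 0.071 to 0.103). Gm37565 changed by -0.47 ± 0.14 with 13 to 34 reads per library and lost its call without any siNC library or siSox9 replicate 1 (0.0658 to 0.101). Gm13067 changed by -0.45 ± 0.12 with 19 to 38 reads and lost it without siNC replicate 1 or any siSox9 library (0.0511 to 0.0854). 4933404O12Rik, at -0.39 ± 0.09, and AC153899.1, at -0.27 ± 0.07, lost it without siNC replicate 1 or 3 or siSox9 replicate 2 or 3 (0.0504 to 0.0655 and 0.0542 to 0.0809). 5033430I15Rik, whose start lies 245 bases from that of Atxn1, had 4.16, 4.34 and 3.82 FPKM with siSox9 and 4.78, 5.05 and 5.03 FPKM with siNC. Both members of this divergent pair were lower, Atxn1 by -0.16 ± 0.04. The lincRNA lost its call without siNC replicate 2 or 3 (0.0517 and 0.0563).

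Among lincRNAs with known roles in growth and stress, 5 were members, of which 2 were called higher and 0 lower, where 12.8% of all genes tested were higher. These were Norad and Pvt1, whose calls were lost in 4 and 5 of the 6 fits with 1 library left out. Pvt1, which lies beside Myc and is often gained with it in tumours, had 1.88, 1.94 and 1.87 FPKM with siSox9 and 1.38, 1.41 and 1.56 FPKM with siNC. Its fold change was 0.24 ± 0.06 (limma, adjusted p = 0.020), and Myc, 52595 bases away, was at 0.08 ± 0.04 and was not called. Trp53cor1, or lincRNA-p21, a p53-induced transcript next to Cdkn1a, had 1.1, 1.23 and 1.16 FPKM with siSox9 and 0.899, 1.27 and 1.25 FPKM with siNC, with overlapping groups. Cdkn1a, the p21 gene of the same locus, was higher by 0.36. Epb41l4aos, at 20.8, 23.4 and 25.4 against 19.95, 18.8 and 21.2 FPKM, and Mirt1, at 3.28, 3.45 and 3.30 against 3.11, 2.82 and 2.71 FPKM, did not pass the test (limma, adjusted p = 0.081 and 0.058). Mirt1 passed after median centring (0.0345), after quantile normalization (0.0229) or without siNC replicate 1 (0.0300), and Epb41l4aos without siSox9 replicate 1 (0.0261). Of the developmental lincRNAs, Dubr and Lncenc1 were members, and Lncenc1, known from naive embryonic stem cells, was at -0.01 ± 0.13. Of the X-linked and the imprinted noncoding RNAs looked for, 0 were members. Only 3 of the 5 X-linked and 1 of the 6 imprinted ones listed had biotype lincRNA. The rest could not be members at any level, so this does not tell whether they were expressed. Near Sox9, within 2 Mb of its start, the one member was 2610035D17Rik, with 1.67, 1.52 and 1.38 FPKM with siSox9 and 2.09, 1.58 and 1.46 FPKM with siNC. Its groups overlapped (fold change -0.10 ± 0.10).

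MicroRNA hairpins lay inside 5 members, of which 0 were called, where 30.4% of all genes tested were. So few members cannot be set against this share. A microRNA finds its targets mainly by its seed, bases 2 to 8, so the main mature products are printed here with the seed in capitals, as RefSeq lists them, because the seed tells which hosts feed the same family. Mir17hg, on chromosome 14 at 115042879-115046727, is the precursor of the miR-17-92 cluster, a growth-promoting cluster activated by Myc. Its products fall into 4 seed groups.
miR-17-5p: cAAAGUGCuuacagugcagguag
miR-20a-5p: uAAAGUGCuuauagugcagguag
miR-18a-5p: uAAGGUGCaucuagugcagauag
miR-19a-3p: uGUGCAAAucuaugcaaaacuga
miR-19b-3p: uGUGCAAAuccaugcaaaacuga
miR-92a-3p: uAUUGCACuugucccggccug

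The first pair share 1 seed, as do the miR-19 pair. Mir17hg had 2.26, 2.32 and 2.44 FPKM with siSox9 and 2.61, 2.25 and 1.93 FPKM with siNC, a fold change of 0.04 ± 0.08 with overlapping groups. The other 4 hosts hold members of further families.
miR-155-5p, in Mir155hg: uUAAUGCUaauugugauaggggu
miR-30c-5p, in Gm27028: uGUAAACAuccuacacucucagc
let-7d-5p, in 6720427I07Rik: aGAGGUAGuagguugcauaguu
miR-1839-5p, in 2900076A07Rik: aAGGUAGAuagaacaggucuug

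Mir155hg, the host of a microRNA of immune cells, had 1.74, 1.62 and 1.37 FPKM with siSox9 and 1.32, 1.3 and 1.83 FPKM with siNC. Gm27028 had 3.02, 1.78 and 3.04 FPKM with siSox9 and 2.83, 2.59 and 2.52 FPKM with siNC. The fold changes of these 4 hosts lay between -0.03 and 0.08, with standard errors of 0.10 to 0.14, and their groups overlapped. RNA-Seq of this kind measures the host transcript and not the mature microRNA.

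Members were also set beside their nearest coding genes, since some lincRNAs share a promoter region with one. The nearest coding start lay at a median of 24252 bases, and 29 lincRNAs formed a divergent pair, with starts within 5000 bases and pointing apart. Of these 29, 8 were called higher (27.6%) and 1 lower (3.45%), and of the other 122, 18 were higher (14.8%) and 9 lower (7.38%). Among all genes tested, 12.8% were higher and 17.6% lower. Membership bears on these shares as well, since 14 members reached the minimum level with siSox9 alone and 10 of those were called higher. Gm19541, AC108401.3 and 2810414N06Rik, all among the 8, had siNC means under 1 FPKM. The shares without such lincRNAs were not counted. The neighbour was itself tested in 122 pairs, where 29 lincRNAs and 57 neighbours were called. The share called among all protein-coding genes tested was 32.2%. In 16 pairs both genes were called, in the same direction in 10 and in opposite directions in 6. In the 28 divergent pairs with a tested neighbour, 9 lincRNAs and 9 neighbours were called, and both in the same direction in 4 and in opposite directions in 2. The 4 were Gm19541 with Tinag, Gm32391 with Atp1b1, AC108401.3 with Zfp36l1, and 5033430I15Rik with Atxn1. The opposite ones were the pair of D830036C21Rik, higher at 0.36 ± 0.08 beside Ercc1, a DNA repair gene that was lower at -0.19 ± 0.05, and that of 1110019D14Rik, higher at 0.31 ± 0.07, whose start lies 8 bases from that of 2610001J05Rik, lower at -0.15 ± 0.05. Over the 28 divergent pairs with a tested neighbour, the fold changes of lincRNA and coding gene had a Pearson correlation of 0.64, or 0.28 without Gm19541 and Tinag, and over the 94 other pairs it was 0.14. These points share libraries and some share neighbours, so they are given as a description. The log2(FPKM + 1) scale also understates the fold changes of low genes, and many of the lincRNAs were low.

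**Figure D4:**
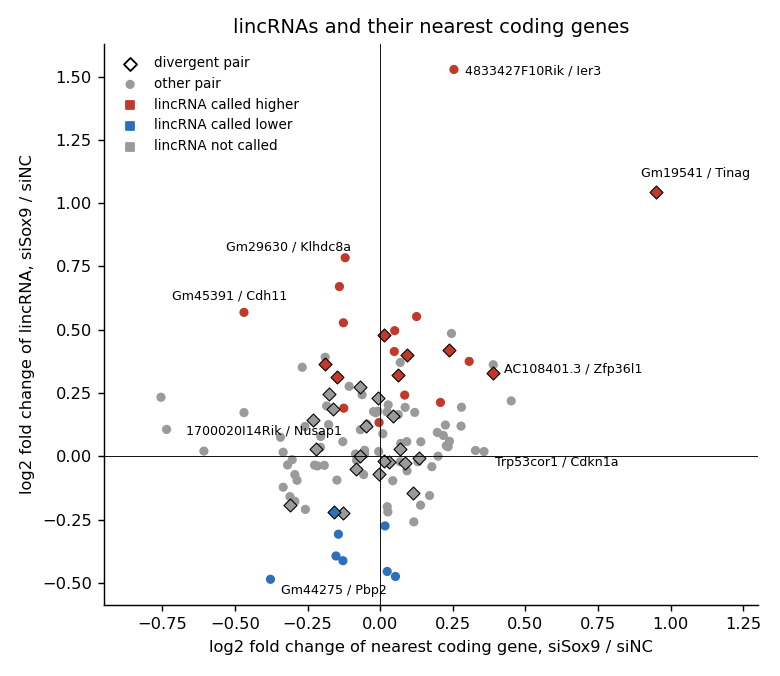
Fold change (log2, siSox9 against siNC) of each lincRNA on the vertical axis against that of its nearest coding gene on the horizontal axis, for the 122 pairs with a tested neighbour. Diamonds with an outline mark divergent pairs, and red, blue and grey mark lincRNAs called higher, called lower and not called. Gm19541 and Tinag stand together at the upper right, while 4833427F10Rik rose far more than its neighbour Ier3.

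Gm32391 had 2.38, 2.19 and 2.02 FPKM with siSox9 and 1.64, 0.997 and 1.56 FPKM with siNC, a fold change of 0.42 ± 0.11 (limma, adjusted p = 0.030). Atp1b1, which encodes the beta subunit of the sodium pump, rose by 0.24 ± 0.03 from a mean of 106 to 125 FPKM. RefSeq places the start of Gm32391 168 bases from that of Atp1b1, so that 1 promoter window holds both starts. AC108401.3 had 1.16, 1.47 and 1.25 FPKM with siSox9 and 0.813, 0.650 and 1.02 FPKM with siNC, a fold change of 0.33 ± 0.10. Zfp36l1, the gene of an RNA-binding protein of messenger RNA decay, rose by 0.39 ± 0.05. Other called lincRNAs of divergent pairs stood beside coding genes that were not called. 2810414N06Rik, 353 bases from Edem3, had 1.44, 1.34 and 1.49 FPKM with siSox9 and 0.700, 0.750 and 0.758 FPKM with siNC, while Edem3 was at 0.01 ± 0.05. 4632404H12Rik beside Ube2q1 (0.32 ± 0.07 against 0.06 ± 0.04) and 1110006O24Rik beside Rab35 (0.40 ± 0.10 against 0.09 ± 0.03) were of the same kind.

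Start regions are shown for 4 called lincRNAs, each 250 bases before to 50 bases after the start given by RefSeq (GRCm38.p6), because SOX proteins bind short words of the kind ACAAAG or ACAATG. Both words were searched on both strands, they cannot overlap at the same bases of 1 strand, and matches are in capitals. The regions are those of the largest rise, of an abundant rise, of the clearest fall and of the start shared with Atp1b1.
4833427F10Rik, chr17:35772200-35772499, + strand, higher: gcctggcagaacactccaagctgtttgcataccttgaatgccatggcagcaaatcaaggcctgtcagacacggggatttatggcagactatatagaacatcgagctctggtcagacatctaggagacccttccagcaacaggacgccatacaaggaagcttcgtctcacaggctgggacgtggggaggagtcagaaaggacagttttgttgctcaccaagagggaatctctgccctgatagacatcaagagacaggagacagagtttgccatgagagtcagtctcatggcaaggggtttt
4930461G14Rik, chr9:58454923-58455222, + strand, higher: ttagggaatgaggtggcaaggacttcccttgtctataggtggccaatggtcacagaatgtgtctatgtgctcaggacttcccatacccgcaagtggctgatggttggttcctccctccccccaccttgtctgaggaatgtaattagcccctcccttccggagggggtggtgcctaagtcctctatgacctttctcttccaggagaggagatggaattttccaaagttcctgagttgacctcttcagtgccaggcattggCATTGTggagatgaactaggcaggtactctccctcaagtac
AU020206, chr7:75782071-75782370, - strand, lower: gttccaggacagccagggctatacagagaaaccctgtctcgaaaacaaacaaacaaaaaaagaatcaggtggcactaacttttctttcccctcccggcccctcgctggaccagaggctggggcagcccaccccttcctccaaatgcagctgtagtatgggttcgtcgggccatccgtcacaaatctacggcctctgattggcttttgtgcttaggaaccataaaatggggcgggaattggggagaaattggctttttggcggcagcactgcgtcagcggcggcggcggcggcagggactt
Gm32391, chr1:164458273-164458572, + strand, higher: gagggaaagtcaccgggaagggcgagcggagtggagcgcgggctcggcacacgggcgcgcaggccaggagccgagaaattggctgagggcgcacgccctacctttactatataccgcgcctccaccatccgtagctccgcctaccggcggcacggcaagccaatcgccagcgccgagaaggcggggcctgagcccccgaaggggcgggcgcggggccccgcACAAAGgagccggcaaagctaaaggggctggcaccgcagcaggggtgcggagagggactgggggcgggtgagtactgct

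The windows of 4833427F10Rik and AU020206 hold neither word, and those of 4930461G14Rik and Gm32391 hold 1 match each. The window shared with Atp1b1 has 70.3% G and C and 32 CG dinucleotides, against 51.0% and 5 in that of 4833427F10Rik. RefSeq gives 91 such windows for 78 of the members, and 18 of these windows, or 19.8%, hold at least 1 of the words, against 28.6% of all 32851 windows. The share was 6 of 15 windows for lincRNAs called higher, 1 of 5 windows for those called lower and 11 of 71 windows for those not called. The 71 windows belong to 58 lincRNAs, while each called lincRNA counted here has 1 window. A match is a description of the letters and not a binding site.

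Annotation limits what some members can be taken to be. GENCODE M21 holds 150 of the 151 and lists 141 of them as lincRNA, and all 36 called lincRNAs are among these. RefSeq holds 92 and lists 8 of them as protein-coding, among them 1810058I24Rik, Tmem250-ps and Zfp469. Of these 8, Gm6712 was called, with 3.53, 3.31 and 3.80 FPKM with siSox9 and 2.58, 2.44 and 3.12 FPKM with siNC. The exons of 18 members share bases with exons of coding genes, 16 of them on the opposite strand alone, and whether the counting used strand is not given in the sources used here. Of these 18, 1 was called, or 5.56%, against 26.3% of the 133 other members and 30.4% of all genes tested. This was 2010300F17Rik, which shares 186 of its 2832 exon bases with Skap1 and rose by 0.21 ± 0.04 (limma, adjusted p = 0.011). Skap1 had 1.35 FPKM with siSox9 and 1.14 FPKM with siNC, far below the lincRNA. Another 6 members overlap each other in 3 pairs, among them D830036C21Rik, called higher, with Gm44698, at 0.39 and not called.

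The build of the called lincRNAs is given as a description. Of the 19 lincRNAs with a single exon block, 8 were called (42.1%), 5 higher and 3 lower, against 23.8% of all 151 lincRNAs and 30.4% of all genes tested. Median exon length was 1599 bases for those called higher, 2854 bases for those called lower and 1468 bases for those not called. Median G and C content was 46.6%, 47.9% and 48.2% in the same order. The median distance to the nearest coding start was 29026, 31580 and 22801 bases. With respect to the minimum level, the members just inside it were Gm26651, 1110006O24Rik and C920006O11Rik, with means from 1.00 FPKM. Just outside it were Gm31651 (0.968 FPKM), 4930556M19Rik (0.957 FPKM) and AC158987.1 (0.950 FPKM).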

How the data were processed

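RNA-Seq of 6 libraries of primary TECs after H/R was used, 3 with siSox9 and 3 with siNC, grouped by the labels. The values, deposited as FPKM for each gene in each library by the authors, were not scaled further, and the submitters' processing notes name HISAT2 2.1.0, Bowtie2 2.2.3, TopHat2 and the build mm9, while 93.3% of the 30246 genes found in GENCODE M21 have its GRCm38 positions, which are used here. Columns named for an siRNA other than siNC were taken as siSox9, the only other siRNA in the labels. Biotypes are those of the table.

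Whole reads were recovered with M21 exon lengths, within 0.02 reads, and 91.0% to 91.1% of the values per library came out whole. Reads give depth and 1 alternative fit. Groups were compared with limma 3.58.1 in R 4.3.3 (lmFit, eBayes with a trend, no replicate block) on log2(FPKM + 1), for genes averaging 1 FPKM or more. Adjusted p-values (Benjamini-Hochberg) cover all 12009 genes, with a threshold of 0.05. The fold change on this scale understates that of low genes. The fit was tested on simulated data. The members and gene lists were chosen with earlier results of these data known. The members named are the 12 largest rises and falls among called ones with non-overlapping groups, the 10 highest, those of the lists, those near Sox9 or at the minimum, and coding neighbours of named ones. Others were chosen after their values were seen, as were the words searched in promoters. Alternatives were a pseudocount of 0.1, no minimum, a minimum of 5 FPKM, TPM, median centring, quantile normalization, a replicate block, leaving out each library, limma voom on the recovered reads, a fold change of at least 0.25, and leaving out members that share coding exons or lie on ribosomal RNA sequence. Counts and figures were made in Python 3.11.15 with pandas 2.3.3 and matplotlib 3.10.9.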

Additional observations from a re-analysis of the deposited data

How the results depend on the processing

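Of 36 lincRNAs called, 22 were called when no minimum level was set, with 18 higher and 4 lower, over more genes. With a minimum of 5 FPKM only 21 lincRNAs were left, of which 9 were called, 8 higher and 1 lower. On TPM 6 were lower, with 26 higher as before. Leaving out 1 library at a time gave 23 to 34 calls, 18 to 28 higher and 4 to 7 lower, with the fewest calls in all without siSox9 replicate 2 (23) and the fewest lower calls without siNC replicate 3 (4). Counting only lincRNAs with at least 1 FPKM in both groups, an alternative chosen after seeing the data, gave 23 calls, 16 higher and 7 lower. Under the other alternatives the counts stayed within 1.5 times, and limma voom on the recovered reads called 31 of the 134 lincRNAs it could take. On TPM 6 of the 36 lost their call, and 6 did with limma voom. Of the 36, 19 were called in each of the 6 fits without 1 library and in each of the 7 other fits that set no higher minimum, wherever they could be fitted, 16 higher and 3 lower.

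With the replicate number as a block, 38 were called, 26 higher and 12 lower, and Pvt1 and AC108401.3 lost their calls (limma, adjusted p = 0.051 and 0.080), while Epb41l4aos gained one (0.048). Same-numbered libraries did not deviate together, with correlations of 0.065, -0.050 and 0.0078 between deviations from the group means, and not every library correlated best with its own number.

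Low read numbers limit the precision for 50 of the 134 lincRNAs with recovered reads, which had a mean under 50 reads. Of these 50, 10 were called, against 35 of all 134 and 30.4% of all genes tested. A lincRNA that did not pass the test is not shown to be unchanged.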

Other observations

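LincRNAs below the minimum level hold further differences that were not part of the 151. In a fit of all genes with a value above 0, 22 of 1798 lincRNAs below 1 FPKM were called (limma, adjusted p under 0.05), or 1.22%, 14 higher and 8 lower with siSox9, where 1.52% of all 16113 genes below 1 FPKM were called. The highest of these in level was 4930556M19Rik, with 1.17, 1.11 and 1.38 FPKM with siSox9 and 0.790, 0.637 and 0.649 FPKM with siNC. AC107755.1 had the largest fold change of them, 0.50, with 0.883, 1.21 and 0.874 FPKM with siSox9 and 0.396, 0.508 and 0.321 FPKM with siNC. Gm26664 had 0.110, 0.0559 and 0.237 FPKM with siSox9 and 0.514, 0.470 and 0.514 FPKM with siNC. In each of these 3 lincRNAs the groups did not overlap. These examples were chosen after their values were seen.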
